A study of Triticum aestivum with 6 samples.

Results

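The probes described here are the 200 of 37826 non-control probes on a wheat array whose signal was highest on the second array of the dwarf line crt/KU-2025 relative to the first. They were chosen by the ratio of replicate 2 to replicate 1 of that line, among the 17321 probes with a scaled signal of at least 500 on replicate 2. The signals of both crt/KU-2025 arrays therefore chose the members and are given below as a description, with no test, whereas the arrays of the other 2 lines took no part in the choice. Cy3-labeled cRNA of crown tissue, the shoot base with the shoot apical meristem, was hybridized to a 1-color Agilent oligonucleotide array, with 2 arrays for each of 3 synthetic hexaploid wheat lines. Such lines are made by crossing a tetraploid wheat, the source of their A and B genomes, with Aegilops tauschii, the source of the D genome. Of the 3, Ldn/KU-2059 (Langdon by Ae. tauschii KU-2059) had a wild-type (WT) phenotype, and Ldn/KU-2025 (Langdon by KU-2025) and crt/KU-2025 (T. carthlicum by KU-2025) were grass-clump dwarfs. The WT differed from Ldn/KU-2025 in the Ae. tauschii parent, and crt/KU-2025 differed from Ldn/KU-2025 in the tetraploid parent. Plants of all 3 lines were 8 weeks old and had been kept at 24°C in long days (18 h light, 6 h dark), each line being represented by 1 synthetic genotype. The methods describe the 2 arrays of a line as independent experiments. The WT and Ldn/KU-2025 arrays lay on 1 slide and the crt/KU-2025 arrays on another, so that this line and its slide cannot be told apart.

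Photosynthesis needs proteins that harvest light, carry electrons and fix carbon. Chlorophyll a/b binding proteins hold the pigments that pass light energy to photosystems I and II, the cytochrome b6-f complex and plastocyanin carry electrons between the photosystems, and ribulose bisphosphate carboxylase (Rubisco) fixes carbon dioxide in the Calvin cycle. Rubisco activase frees the active sites of Rubisco, and photorespiration recycles the product formed when Rubisco takes up oxygen instead. Green leaf cells hold the messages for these proteins at very high levels. In bulk tissue, fewer cells of a type and less RNA per cell cannot be told apart.

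Each signal below is a background-subtracted intensity scaled so that the trimmed mean of its array is 2500. On replicate 1 of crt/KU-2025 the members ranged from 5.14 to 35190 with a median of 197.2, and on replicate 2 from 507 to 281123 with a median of 4514. The median ratio of replicate 2 to replicate 1 was 3.84 on the log2 scale. The lowest ratio among the members was 7.66-fold, for whsh_allContig1212 (2746 and 21021), and the highest outside them was 7.62-fold, for whsh_allContig186 (17780 and 135435). These neighbors on the 2 sides of the limit had nearly the same ratio. On replicate 1, 20 members were not well above background by the criterion of the scanner software, and on replicate 2 all 200 were well above it.

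The arrays of the other lines did not share this unevenness. The median log2 ratio of replicate 2 to replicate 1 over the members was -0.06 in WT and 0.07 in Ldn/KU-2025. Between the WT arrays 8 members differed by 1.5-fold or more, and between the Ldn/KU-2025 arrays 4 did. The widest ratio between WT arrays belonged to whsh_allContig1231, picked out after its values were seen, with signals of 80.2 and 5.93. The same choice made in the other replicate pairs gave a 200th ratio of 1.59 for WT replicate 2 over replicate 1, 1.17 for the reverse, 1.14 for Ldn/KU-2025 replicate 2 over replicate 1 and 1.43 for the reverse. In those 4 lists 0, 2, 2 and 0 probes, in the same order, were members. A ratio of 5 or more was found for 256 probes from replicate 2 to replicate 1 of crt/KU-2025 and for 305 probes the other way, against at most 7 in any direction in the other lines.

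**Figure D1:**
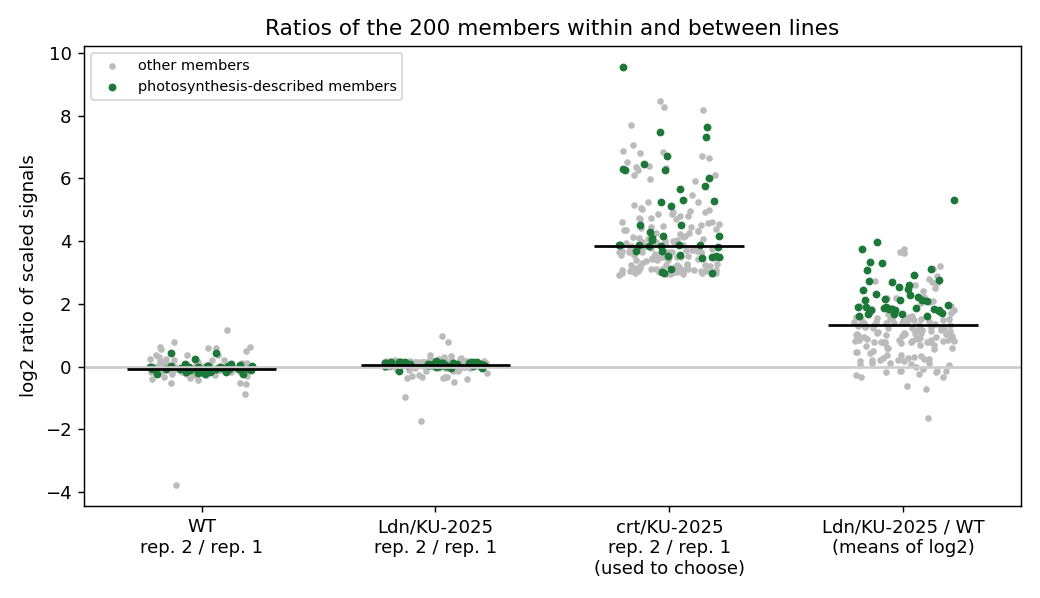
Log2 ratios of scaled signals for the 200 members, with 1 point a probe: replicate 2 to replicate 1 in each line, and the mean log2 signal of Ldn/KU-2025 minus that of WT. Black lines are medians, which lie at -0.06, 0.07, 3.84 and 1.33 from left to right. The ratio in crt/KU-2025 chose the probes.

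Levels in WT and Ldn/KU-2025 mostly lay between those of the 2 crt/KU-2025 arrays. The median member signals were 460.9 and 466 on the WT arrays and 1173 and 1249.8 on the Ldn/KU-2025 arrays. Both Ldn/KU-2025 arrays lay between the crt/KU-2025 arrays for 179 of the 200 members, and both WT arrays did for 130. For 116 members the order was crt/KU-2025 replicate 1, both WT arrays, both Ldn/KU-2025 arrays and crt/KU-2025 replicate 2, from low to high. Replicate 2 of crt/KU-2025 exceeded all 4 arrays of the other lines for 194 members, and replicate 1 was below all 4 for 135, within their range for 51 and above all 4 for 14.

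**Figure D2:**
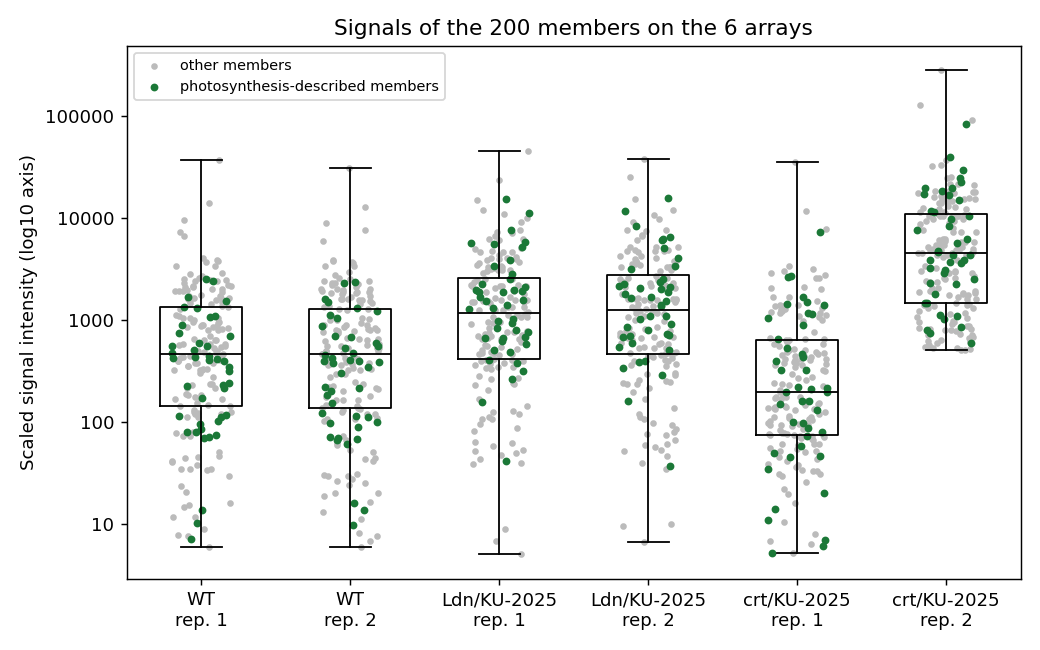
Scaled signal intensity (log10 axis) of the 200 members on each of the 6 arrays, with 1 point a probe. Boxes span the quartiles, whiskers the whole range and the inner lines are medians, which rise from 460.9 and 466 in WT to 1173 and 1249.8 in Ldn/KU-2025 and stand at 197.2 and 4514 on the crt/KU-2025 arrays. Green points are the 43 members described as photosynthesis genes.

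Ldn/KU-2025 was compared with WT on 4 arrays that the choice had not used. Its median log2 ratio to WT was 1.33 over the members and -0.02 over all 37826 probes, and lay between 1.25 and 1.40 when 1 array of each line was taken at a time. With the methods' threshold of 3-fold and an adjusted p under 0.05 (limma, Benjamini-Hochberg over all probes), 73 members were higher in Ldn/KU-2025 and 0 were lower. Over all probes 1.40% were called higher and 0.301% lower, and over the 17321 probes that met the signal limit 1.77% were called higher. The signals of the lines did not overlap for 187 members, 179 of them higher and 8 lower in Ldn/KU-2025, where 35.0% of all probes were higher and 37.7% lower without overlap. By the adjusted p alone 165 members were higher, beside 18.0% of all probes, and 1 was lower, beside 15.9%. The lower one, rwhdl21c16, which was picked out after its values were seen, had signals of 423 and 427 in WT, 270.1 and 288 in Ldn/KU-2025, and 112.6 and 882 in crt/KU-2025.

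These calls rest on 2 arrays a line. When any 1 of the 4 arrays was left out, 1 line had a single array, so that the calls could not be checked this way. The median log2 ratio of the members to WT was then 1.27 to 1.37. With crt/KU-2025 in the fit as well, the spread between its arrays entered the error of every member and 0 were called, and with another background correction (normexp) 41 were.

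Further down the order of the crt/KU-2025 ratio, Ldn/KU-2025 stood less far above WT. The median of this second ratio was 1.52 on the log2 scale for ranks 1 to 50, 1.31 for ranks 51 to 100, 1.48 for ranks 101 to 150 and 1.10 for ranks 151 to 200. Beyond the members it was 0.54 up to rank 400, 0.27 for ranks 401 to 800 and 0.19 for ranks 801 to 2000. Within the 200 members the 2 ratios were only weakly related across probes (Pearson's r = 0.19, Spearman's rho = 0.12, n = 200 probes that share the same 6 arrays). Among the 200 probes with the highest ratio of replicate 1 to replicate 2, at a signal of at least 500 on replicate 1, 0 were called higher and 15 lower in Ldn/KU-2025 than in WT, with a median log2 ratio to WT of -0.67.

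**Figure D3:**
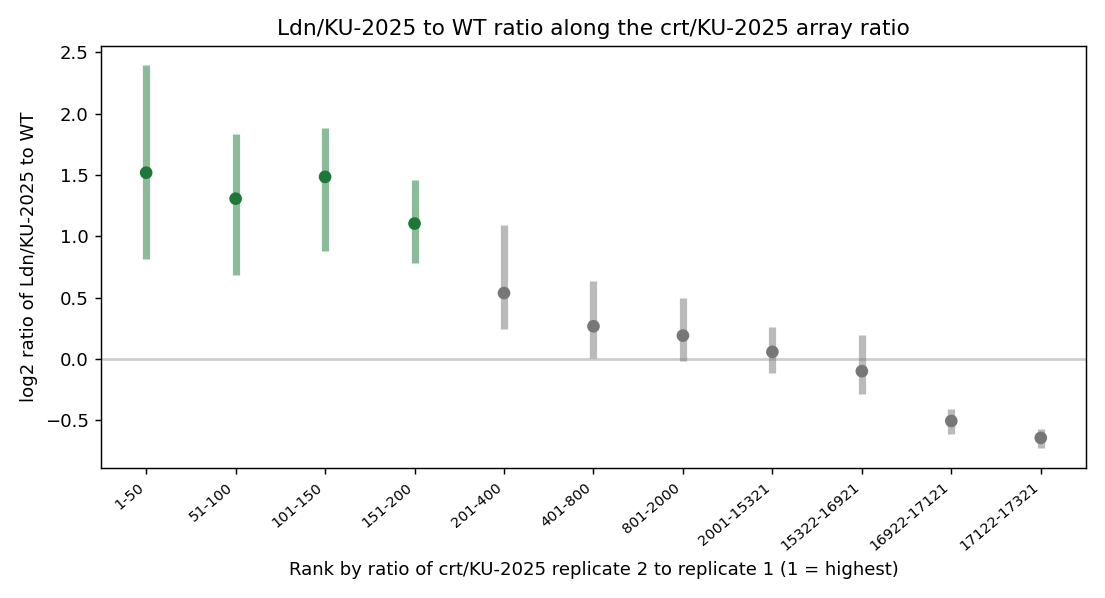
Log2 ratio between Ldn/KU-2025 and WT, positive where Ldn/KU-2025 was higher, in 11 bins of probes ordered by the ratio of crt/KU-2025 replicate 2 to replicate 1, with the member bins in green. Points are medians over the probes of a bin and bars span the quartiles. The median lies at 1.52 for ranks 1 to 50 and at -0.64 for the last 200 ranks.

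The probes were named through the descriptions in a supplementary table of the study, which lists probes higher or lower in the dwarf lines. It described 69 of the 200 members, all as probes higher in Ldn/KU-2025 than in WT on these same arrays. Their rise in that line, with the p-values given for it below, is therefore not independent evidence of its direction. The other 131 members are not named here, and 4 of them were called higher. These 4, picked out after their values were seen, were MUGEST2003_23lib_Contig24245_892, wheat0130Contig135, whsh_allContig1268 and whsh_allContig1036. By description or gene ontology (GO) term 43 members belonged to photosynthesis. By description 17 of these were chlorophyll a/b binding proteins (11), the Rubisco small chain (3) or Rubisco activase (3). A further 4 were assigned to Rubisco by GO term only. Of the rest, 11 were photosystem I subunits, 2 photosystem II subunits, 3 electron carriers and 6 other Calvin cycle proteins. A further 5 were photorespiration enzymes, 6 had another chloroplast GO term and 15 another or no description. The table held 99 probes with another chloroplast GO term, 25 of them listed as higher in Ldn/KU-2025. Over the 99 the median ratio of replicate 2 to replicate 1 was 1.11. Their median log2 ratio to WT was 0.40, with 26 called higher and 2 lower in Ldn/KU-2025. Probes listed for crt/KU-2025 had passed the study's t-test on both crt/KU-2025 arrays, which favors even ones. In the part of that list held here 0 were members, so that the ratio of 1.11 is not independent evidence of evenness. Several probes carried the same description, and probes to 1 gene or to its copies in the A, B and D genomes are not independent of each other.

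The table described 55 probes as photosynthesis in all, and 43 of them were members. Of the other 12, 8 stood at ranks 206 to 238 and 3 chlorophyll a/b binding probes had signals below 500 on crt/KU-2025 replicate 2 with the same unevenness, between 17.8-fold and 73.6-fold by measured values (at least 3.54-fold for whsh_allContig1218, at least 14.2-fold for whsh_allContig1253 and at least 17.5-fold for wheat0130Contig1365). The exception was rwhcs20f08_m_664, described as a chlorophyll a/b binding protein, whose crt/KU-2025 signals were 8392 and 8312. Its signals were 163.8 and 199.9 in WT and 4813 and 4768 in Ldn/KU-2025, a 26.5-fold rise (log2 4.73 ± 0.12 SE, adjusted p = 0.0068 by limma). Summed over the 55 probes, the signal was 25345 and 24393 on the WT arrays, 115046 and 121271 on the Ldn/KU-2025 arrays, and 39602 and 468537 on the crt/KU-2025 arrays. All 55 were called higher in Ldn/KU-2025, as the table's own selection requires.

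The 11 light-harvesting probes, which the study had selected as higher in Ldn/KU-2025, kept the same order of lines. wheat0130Contig15445 read 590.2 and 588 in WT, 1985 and 2237 in Ldn/KU-2025, and 644 and 22372 in crt/KU-2025. whsh_allContig1259 read 2385 and 2279 in WT, 7689 and 8364 in Ldn/KU-2025, and 1433 and 18369 in crt/KU-2025. whsh_allContig1115, described as a light-harvesting complex II type III protein, read 699 and 680.2 in WT, 2818 and 3133 in Ldn/KU-2025, and 149 and 11437 in crt/KU-2025. In each of these Ldn/KU-2025 was above both WT arrays, and the crt/KU-2025 arrays fell on the 2 sides of the Ldn/KU-2025 level. whsh_allContig1245, with the same description as whsh_allContig1115, read 111 and 113 in WT, 402 and 391 in Ldn/KU-2025, and 6.14 and 1090.25 in crt/KU-2025, the first being not well above background and the difference at least 42.2-fold. rwhsh14j20 read 10.2 and 13.7 in WT, 156 and 160.4 in Ldn/KU-2025, and 5.14 and 1029 in crt/KU-2025. Its WT signals and its replicate 1 signal were not well above background, so that its level in Ldn/KU-2025 exceeded that of WT at least 5.72-fold (adjusted p = 0.0088 by limma) and its level on replicate 2 that of replicate 1 at least 39.8-fold.

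Of the remaining light-harvesting members, whsh_allContig1271_2 rose in Ldn/KU-2025 from 69.2 and 66.9 to 667 and 697 (10.02-fold, log2 3.32 ± 0.05 SE), and had 72.1 and 4673 in crt/KU-2025. whsh_allContig418 rose 9.81-fold and whsh_allContig1260_2 8.502-fold, with ratios between the crt/KU-2025 arrays of 50.3-fold and 53.8-fold. whsh_allContig1096 rose 3.17-fold and whsh_allContig1206 3.20-fold, and their ratios between the crt/KU-2025 arrays were 19.6-fold and 14.3-fold. whsh_allContig1037 was near background in WT (7.20 and 9.73) and low in Ldn/KU-2025 (41.3 and 37.2), which bounds its rise at 1.42-fold or more. It read 7.03 and 744 in crt/KU-2025. Over all 11 the median log2 rise in Ldn/KU-2025 was 2.11 and the median ratio between the crt/KU-2025 arrays was 53.8-fold.

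Probes for Rubisco and its activase showed 2 patterns on crt/KU-2025 replicate 1. The 3 small chain probes lay above WT on both crt/KU-2025 arrays. MUG005A09R990206 read 884 and 870.4 in WT, 5139 and 5030.05 in Ldn/KU-2025, and 2669 and 39520.4 in crt/KU-2025. MUG007G09R990628 read 429 and 392 in WT, 2227 and 2346 in Ldn/KU-2025, and 1143 and 16851 in crt/KU-2025. MUG019A11R990611 read 405 and 401 in WT, 1968 and 2001 in Ldn/KU-2025, and 1391 and 19600.4 in crt/KU-2025. All 3 small chain probes thus stood between WT and Ldn/KU-2025 on replicate 1 and 14.1-fold to 14.8-fold higher on replicate 2. They rose 4.93-fold to 5.80-fold in Ldn/KU-2025, with adjusted p between 0.0065 and 0.0071 (limma).

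The activase probes were near or below WT on replicate 1. wheat0130Contig57 read 113 and 121 in WT, 759 and 795 in Ldn/KU-2025, and 49.4 and 4314 in crt/KU-2025. wheat0130Contig15705 read 96.0 and 97.7 in WT, 513 and 546 in Ldn/KU-2025, and 98.4 and 7537 in crt/KU-2025, and whsh_allContig1219 rose 3.86-fold in Ldn/KU-2025 and differed 39.0-fold between the crt/KU-2025 arrays. Among the probes assigned to Rubisco by GO term only, whsh_allContig1273 had the highest measured ratio of all 17321 probes. It read 13.7 and 16.2 in WT, 576 and 592 in Ldn/KU-2025, and 11.03 and 8288 in crt/KU-2025, so that it was at least 321-fold higher on replicate 2 than on replicate 1. Its rise in Ldn/KU-2025 was at least 21.1-fold (adjusted p = 0.0065 by limma), its WT signals being not well above background.

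The other 3 probes of that kind had the same order of lines but differed in where replicate 1 fell. wheat0130Contig14378 read 79.0 and 70.1 in WT, 616 and 685 in Ldn/KU-2025, and 20.3 and 3227 in crt/KU-2025. wheat0130Contig328 read 2500.5 and 2358 in WT, 15416 and 15807 in Ldn/KU-2025, and 7241 and 83871 in crt/KU-2025, and whsh_allContig1282 rose 7.62-fold in Ldn/KU-2025 and differed 11.3-fold between the crt/KU-2025 arrays. All 21 chlorophyll a/b binding and Rubisco members had the order WT, Ldn/KU-2025, crt/KU-2025 replicate 2. Its first step was required by the study's own selection of these probes, and the choice of members favored a high replicate 2. On replicate 1 all 21 were below both Ldn/KU-2025 arrays, and 11 of the 21 were below both WT arrays.

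**Figure D4:**
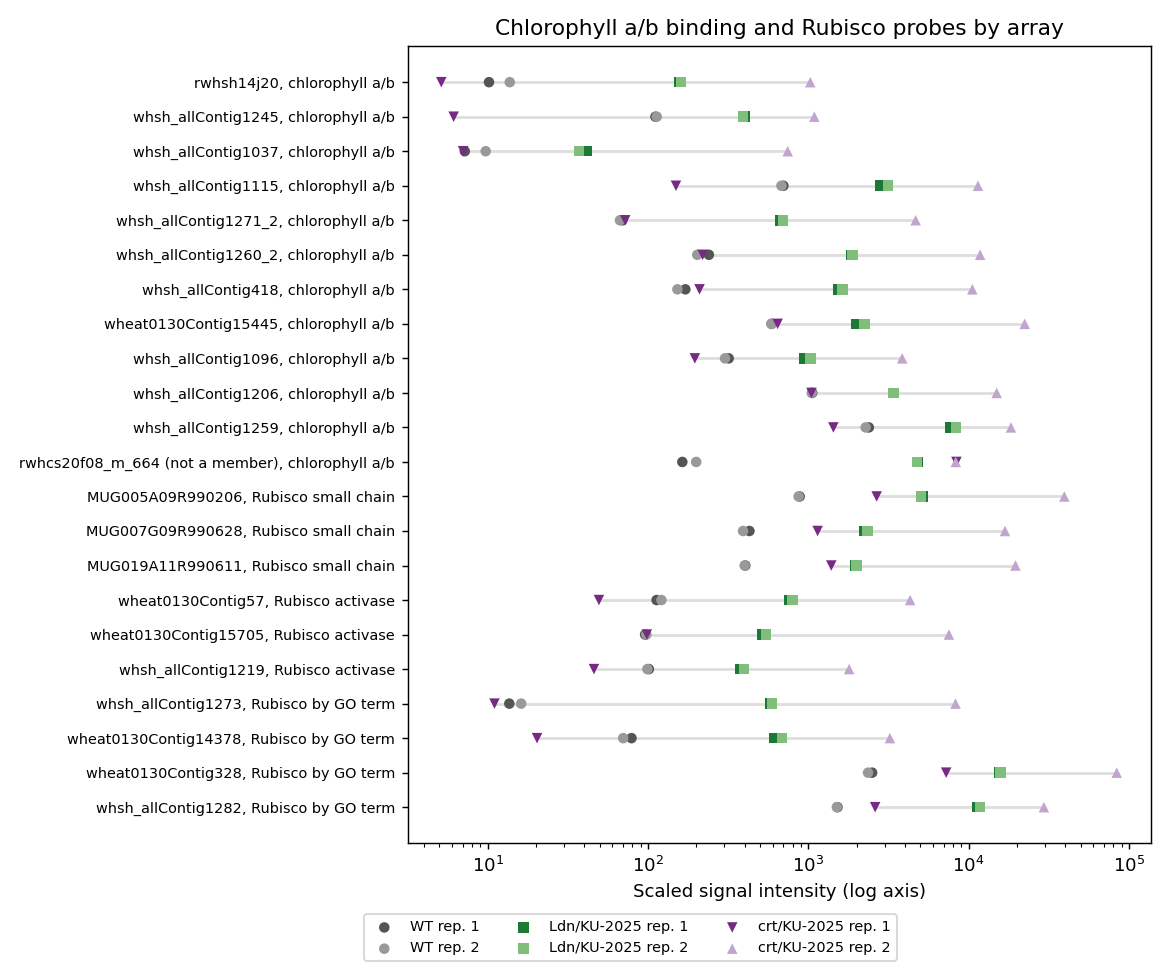
Scaled signal intensity (log axis) on the 6 arrays of rwhcs20f08_m_664 and 21 members. The members are chlorophyll a/b binding protein, Rubisco or Rubisco activase by description or GO term. Each row is a probe and the gray line joins the crt/KU-2025 arrays. The WT arrays lie to the left of the Ldn/KU-2025 arrays in every row, and the crt/KU-2025 arrays lie apart in every row but that of rwhcs20f08_m_664, where they read 8392 and 8312.

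Photosystem, electron transport and Calvin cycle members followed the same order, their rise in Ldn/KU-2025 being again required by the study's selection. The 11 photosystem I probes differed 7.93-fold to 23.0-fold between the crt/KU-2025 arrays with a median of 14.7-fold, and their median log2 rise in Ldn/KU-2025 was 1.83. Among them, whsh_allContig1169 read 1332 and 1307 in WT, 5651 and 6015 in Ldn/KU-2025, and 1496 and 24482 in crt/KU-2025. Of the 2 photosystem II probes, wheat0130Contig15778, described as the photosystem II 10 kDa polypeptide, read 503 and 479 in WT, 2127 and 2176 in Ldn/KU-2025, and 431 and 3696 in crt/KU-2025. Replicate 1 of crt/KU-2025 was above both WT arrays for the first of these probes and below both for the second. wheat0130Contig5171, described as the iron-sulfur subunit of the cytochrome b6-f complex, read 1695 and 1603 in WT, 5591 and 6262 in Ldn/KU-2025, and 1675 and 19558 in crt/KU-2025.

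whsh_allContig1137, described as CP12, a small regulatory protein of the Calvin cycle, rose in Ldn/KU-2025 from 71.4 and 60.5 to 983 and 1083 (15.7-fold, log2 3.97 ± 0.12 SE, adjusted p = 0.0072 by limma). In crt/KU-2025 it read 159.8 and 6284. Of the 8 photorespiration probes in the table, 5 were members and 7 were called higher in Ldn/KU-2025, and over the 8 the ratio of replicate 2 to replicate 1 ran from 0.82 to 112 and the log2 ratio to WT from 0.06 to 3.63. Among the members, wheat0130Contig1254, described as peroxisomal (S)-2-hydroxy-acid oxidase, which makes glyoxylate from glycolate, read 217 and 236 in WT, 951 and 1062 in Ldn/KU-2025, and 135 and 9246 in crt/KU-2025. Of the 6 members with another chloroplast GO term, whfl_allContig1928 (557 and 7696 in crt/KU-2025) rose 6.12-fold in Ldn/KU-2025, and of the 15 with another or no description whfl_allContig61 (11606 and 126586) rose 6.55-fold.

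The members with the next highest ratios were not named by the table and had a different pattern. whsh_allContig14 read 828 and 854 in WT, 772 and 744 in Ldn/KU-2025, and 16.2 and 5753 in crt/KU-2025. whsh_allContig1182 read 1277 and 1266 in WT, 1108 and 1137 in Ldn/KU-2025, and 33.5 and 10343 in crt/KU-2025. wheat0130Contig12872_2 read 2179 and 2087 in WT, 1871 and 2039 in Ldn/KU-2025, and 30.8 and 8973 in crt/KU-2025. whsh_allContig1270 read 1464 and 1474 in WT, 1343 and 1351 in Ldn/KU-2025, and 54.7 and 11348 in crt/KU-2025. Between Ldn/KU-2025 and WT the log2 ratios of these 4 probes were -0.18 to -0.13. None had an adjusted p under 0.05 (from 0.0515 to 0.236 by limma), although all 4 were lower in Ldn/KU-2025 without overlap. With 75th percentile scaling 3 of the 4, all but wheat0130Contig12872_2, passed the adjusted p alone (from 0.0257 to 0.0309 by limma). With quantile normalization the same 3 did (adjusted p from 0.0341 to 0.0438 by limma). At the 3-fold threshold 0 members were called lower with either scaling. These scalings also moved the median log2 ratio over all probes, from -0.02 to -0.11 and -0.04. On the crt/KU-2025 arrays replicate 1 was far below and replicate 2 far above both lines. Over the members, replicate 1 was at least 3-fold below the WT mean for 64 probes, replicate 2 at least 3-fold above it for 185, and both held for 49. Against the Ldn/KU-2025 mean the same counts were 133, 125 and 62. rwhsh4o05, which is not described, read 36988 and 31178 in WT, 45363 and 38112 in Ldn/KU-2025, and 35190.4 and 281123 in crt/KU-2025.

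A feature of probe names that the choice had not used was frequent among the members. Names starting with whsh belonged to 100 of the 200 members, to 3.52% of the 17121 other probes that met the signal limit, and to 0 of the 200 probes with the highest ratio of replicate 1 to replicate 2. The meaning of this prefix is not stated in the files used here. Of the 100 whsh members 39 were called higher in Ldn/KU-2025, and of the 100 others 34 were. On the array surface the members were spread over its 4 quadrants in shares of 21.0% to 29.0%, where all probes had 24.7% to 25.3%. Spots flagged as non-uniform or as population outliers numbered 1 among the members on replicate 2 and 0 on replicate 1.

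Other probe groups from the same table had no members, and some were even between the crt/KU-2025 arrays and some were not. As higher in Ldn/KU-2025 the table listed 3 of the 3 cellulose synthase probes. It so listed 1 of the 7 heat shock or chaperone probes and 0 of the 4 ribosomal protein probes. Probes listed for crt/KU-2025 had passed the study's t-test on both crt/KU-2025 arrays, which favors even ones. For such probes, evenness and absence from the members are not independent evidence. The 15 peroxidase probes, 10 of which were listed as higher in Ldn/KU-2025, had ratios of replicate 2 to replicate 1 from 0.59 to 2.26, and the 3 cellulose synthase probes from 1.07 to 1.45. The 4 ribosomal protein probes had ratios from 0.83 to 1.22 and the 7 heat shock or chaperone probes from 0.82 to 4.49. The 3 histone probes went the other way, with ratios from 0.12 to 0.19 and a summed signal that was 2295 on replicate 1 and 389 on replicate 2. The 2 probes described as root peroxidase were higher on both crt/KU-2025 arrays than on any other array, with summed signals of 54.99 and 26.1 in WT, 683 and 745 in Ldn/KU-2025, and 3426 and 3227 in crt/KU-2025. All 5 probes for meristem and flowering regulators, the MADS-box genes Vrn-A1, TaAP1-3 and TaAP1-2 and the AP2-like genes AIL5 and BBM2-like, were lower on both crt/KU-2025 arrays than on any other. Their summed signals were 5139 and 5457 in WT, 5376 and 5097 in Ldn/KU-2025, and 1605 and 1859 in crt/KU-2025. Vrn-A1 and TaAP1-2 were not well above background on either crt/KU-2025 array, and AIL5 and BBM2-like were not on replicate 1, so that the ratio between these arrays was measured for TaAP1-3 alone, at 1.14. The study named the MADS-box probes for lower array signals in Ldn/KU-2025, and by quantitative RT-PCR in both dwarf lines. It named the AP2-like probes for lower signals in crt/KU-2025. In the values used here Vrn-A1 read 158 and 170 in WT, 179 and 159 in Ldn/KU-2025, and 8.35 and 13.3 in crt/KU-2025. TaAP1-3 read 3923 and 4112 in WT, 4251 and 4054 in Ldn/KU-2025, and 1531 and 1751 in crt/KU-2025. TaAP1-2 read 678 and 790 in WT, 594 and 581 in Ldn/KU-2025, and 5.89 and 10.8 in crt/KU-2025. The marked lowering of these MADS-box probes was thus on the crt/KU-2025 arrays and not in Ldn/KU-2025, for which the study gave its array ratios. The choice rested in part on these same arrays, so that the direction of the 5 probes is not independent evidence. The same holds for the listed peroxidase probes. The part that tissue makeup had in the unevenness of the members was not tested.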

How the data were processed

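The authors deposited Agilent Feature Extraction output for 6 arrays, 2 for each line. The intensity used here is the processed signal, background-subtracted and spatially detrended by the authors. The software version is 10.7.3.1 in the file headers and 9.5 in the submitters' processing notes. As the methods state, each array was multiplied by 2500 and divided by a trimmed mean, which leaves out 2% of values at either end (factors 1.66 to 2.47). These values matched the authors' deposited table of scaled intensity (log2 correlation 1 on every array). Each array had 75.1% to 77.6% of its 37826 probes well above background, and the number of arrays limits the precision.

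The members and probe lists were chosen with earlier results of these data known. Ldn/KU-2025 was tested against WT with limma 3.58.1 (R 4.3.3) on log2 signals of 4 arrays, called at 3-fold or more and an adjusted p under 0.05. The crt/KU-2025 arrays were left out of this fit, since their difference chose the members. The fit was first tested on simulated data. Where no array of a line read a probe well above background, or replicate 1 of crt/KU-2025 did not, the fold is given as at least the ratio to the higher of its own signal and the lowest signal well above background on that array. Named probes were the 5 members with the highest ratio and those at ranks 200 and 201. All chlorophyll a/b binding, Rubisco and activase members by description or GO term were named, and the member of each other class with the highest replicate 2 signal. So were the 3 called members with the largest fitted rise (0 members were called lower). The last were the 2 photosynthesis probes outside the list with the lowest ratio, rwhcs20f08_m_664 and wheat0130Contig4178 (253 and 1466 in crt/KU-2025). Probes outside this rule are named as such or stand in a count of 5 or fewer. Only names and GO terms were taken from the supplementary table, whose list for crt/KU-2025 was held in part. Probe sequences were not used here, and 0 probe names matched the reference gene names. The methods' t-test, other scalings, background corrections, filters and list sizes, and array numbers as a block were tried.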

Additional observations from a re-analysis of the deposited data

How the results depend on the processing

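The 73 members called higher in Ldn/KU-2025 became 68 with 75th percentile scaling, 67 with quantile normalization, 68 with the methods' t-test and 73 with the authors' scaled values. Normexp background correction gave 41 members and 31 of the 55 photosynthesis probes, a 2-fold threshold 126 members, and the adjusted p alone, an alternative chosen after seeing the data, 165 higher and 1 lower. Taking 100 probes gave 43 and 400 probes 94. With all 6 arrays in the fit 0 members and 1 photosynthesis probe were called. Leaving out any 1 array left a line with a single array, so that no calls are given for it. The median log2 ratio of 1.33 was 1.245 with 75th percentile scaling, 1.24 with quantile normalization and 0.98 with normexp, 1.42 for 100 probes, 0.84 for 400 and 1.26 for a signal limit of 1000. It was 1.27 to 1.37 with 1 array left out and 1.25 with WT signals near background at their limit. The median log2 ratio between the crt/KU-2025 arrays, recomputed after seeing the data, was 3.16 with normexp instead of 3.84. The labels number the arrays alike in each line, but deviations of same-numbered WT and Ldn/KU-2025 arrays correlated at -0.07. The numbers were therefore not taken as pairs. With a replicate block 0 of all 37826 probes were called, and so 0 members and 0 photosynthesis probes. Of the 73 members called, 4 (whsh_allContig1037, wheat0130Contig135, wheat0130Contig10368 and whsh_allContig39) were bounded at under 3-fold, their WT signals being not well above background. whsh_allContig1182 also passed the adjusted p with dim probes left out (0.0391) and whsh_allContig1270 by the methods' t-test (0.0416). Normexp was fitted on the non-control spots.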
